A study of Mus musculus with 48 samples.

Results

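Matrix metalloproteinases and their inhibitors were followed through 48 mouse livers that carried a mutated, a deleted or an intact liver X receptor-α (LXRα), encoded by Nr1h3. The set holds 9 genes of the 55416 in the count tables, 6 proteases (Mmp2, Mmp9, Mmp12, Mmp13, Mmp14 and Mmp19) and 3 inhibitors (Timp1, Timp2 and Timp3), each found by the gene identifier of its mouse symbol. All 9 passed the filter on low counts.

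The knock-in study (DN) compared DN:WT, DN:HET and DN:HOM mice, which carry 0, 1 and 2 copies of the dominant negative LXRα W441R allele, made by CRISPR-Cas9 editing of C57BL/6J embryos and bred from 1 founder. These mice were male. The knockout study (KO) compared KO:WT, KO:HET and KO:HOM mice of an LXRα-deficient line backcrossed to C57BL/6. It is described as a repeat of the knock-in experiment, and the sources read here do not state the sex of its mice outright. The labels name C57Bl/6J for all livers, 8 in each of the 6 groups, and all mice, controls included, ate a western diet with 0.2% cholesterol for 8 weeks from 8 weeks of age. Livers for sequencing were taken at 16 weeks in both studies. Both alleles are present in every cell of the body, so no cell type is singled out by the genotype. The studies were bred separately, and each mutant group was compared with the wild-type group of its own study.

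Matrix metalloproteinases are zinc-dependent enzymes that cut collagens and other proteins of the extracellular matrix. Most are made as inactive proenzymes that are cleaved outside the cell or at its surface. The tissue inhibitors of metalloproteinases (TIMPs) bind the active site and block it. In the injured liver, stellate cells and macrophages are the best known sources of both, and the outcome of fibrosis depends on how matrix is laid down and removed.

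Reads on genes per liver numbered 5332897 to 16961379, and only KO:HET animal 3 and KO:HOM animal 17 were under 10000000. A pair of knock-in livers went against their labels. DN:WT animal 10 had the highest level of its group for 8 members and the lowest for Mmp19, and DN:HOM animal 12 had the lowest of its group for 8 members and the highest for Mmp19. The pair is absent from a source table of the study in which the other 22 DN livers could be matched, and no reason is stated there. That table covers target genes of bile-acid signalling only. The legend of the study's RNA-seq heatmap of lipid genes gives n = 8, so leaving the pair out is a choice made here. Results below rest on the other 46 livers. The value over all 48 as labelled stands beside the knock-in fold change of each member and of most other genes named. In the targeted gene itself, Nr1h3 stood at 27 ± 1.99 CPM (counts per 1000000 reads, SD, n = 8) in KO:HOM livers against 93.6 ± 8.82 CPM (SD, n = 8) in KO:WT livers, and at 72.8 ± 3.56 CPM (SD, n = 7) in DN:HOM against 91.8 ± 5.04 CPM (SD, n = 7) in DN:WT livers. The knock-in values over all 48 livers were 74.6 ± 5.95 and 89.2 ± 8.60 CPM (SD, n = 8). The counts cover the whole gene, and which exons the knockout removes was not given in the sources used here. Hepatocyte markers such as Alb were detected in every liver.

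The 250 bases before the annotated start of 4 proteases are shown because these promoters bring together genes that moved in opposite directions, Mmp2, Mmp12 and Mmp13 upwards and Mmp19 downwards in DN:HOM livers. AP-1, the dimer of Fos and Jun proteins, is the classical activator of many metalloproteinase genes, and its letters TGANTCA are in capitals where present (GRCm39, plus strand). These bases lie at chr8:93553652-93553901 for Mmp2, chr9:7347124-7347373 for Mmp12, chr9:7272264-7272513 for Mmp13 and chr10:128626523-128626772 for Mmp19, and all are upstream of the first exon of the reference transcript.
Mmp2: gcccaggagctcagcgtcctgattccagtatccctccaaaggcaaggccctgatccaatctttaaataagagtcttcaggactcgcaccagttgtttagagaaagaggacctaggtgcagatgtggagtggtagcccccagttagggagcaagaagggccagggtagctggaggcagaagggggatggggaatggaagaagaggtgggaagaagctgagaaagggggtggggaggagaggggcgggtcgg
Mmp12: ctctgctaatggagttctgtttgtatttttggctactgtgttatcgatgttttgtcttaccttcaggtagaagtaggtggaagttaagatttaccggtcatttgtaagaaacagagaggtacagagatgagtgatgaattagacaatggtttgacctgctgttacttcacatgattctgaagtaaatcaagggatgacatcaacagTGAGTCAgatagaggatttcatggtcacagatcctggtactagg
Mmp13: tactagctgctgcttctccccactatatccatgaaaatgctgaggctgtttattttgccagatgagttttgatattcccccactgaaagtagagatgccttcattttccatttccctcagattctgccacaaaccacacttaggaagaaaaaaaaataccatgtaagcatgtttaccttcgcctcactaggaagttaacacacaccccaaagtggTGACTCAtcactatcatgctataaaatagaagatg
Mmp19: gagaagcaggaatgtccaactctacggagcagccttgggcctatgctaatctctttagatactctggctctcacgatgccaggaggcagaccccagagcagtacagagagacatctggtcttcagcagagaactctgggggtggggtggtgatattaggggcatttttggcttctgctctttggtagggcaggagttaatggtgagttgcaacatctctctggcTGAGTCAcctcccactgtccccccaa
The AP-1 letters, whose reverse complement is again TGANTCA, began 44 bases before the start in Mmp12, 35 in Mmp13 and 26 in Mmp19, and were not found in this window of Mmp2. Of the 9 members 4 held them (Mmp9 is the other one, at 69 bases), against 6.18% of 21757 protein-coding promoters of the same length. The PEA3 letters AGGAAG, searched on both strands, were in 5 of 9 members and 28.9% of all promoters. The TATA letters TATAAA were in 1 of 9 (Mmp13) and 11.9% of all promoters, again on both strands. The repeat bound by LXR dimers, written strictly as AGGTCA, any 4 bases and AGGTCA again and searched on both strands, was in 0 of 9 members and in 0 of 21757 promoters, so this strict form separates no genes. These are matches of letters and not binding sites.

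Of the 6 proteases, Mmp19, which cuts basement membrane proteins, had the highest level in wild-type livers. Per kilobase of exon, which allows genes to be compared, Mmp19 had 26.7 ± 2.53 CPM per kilobase (SD, n = 7) in DN:WT livers, and Mmp14, the membrane-bound protease that activates pro-MMP2, had 5.43 ± 1.21. Timp2 (1.95 ± 0.244) and Timp3 (1.82 ± 0.137) followed, with overlapping ranges, and then Mmp2 (0.706 ± 0.230). Mmp12, Timp1, Mmp9 and Mmp13 lay between 0.128 and 0.252 CPM per kilobase on average, with ranges that overlapped from each gene to the next. In KO:WT livers the order was the same but for Timp3 (3.56 ± 1.08, SD, n = 8), which stood ahead of Timp2 (2.90 ± 0.900), and these ranges overlapped as well. Mmp19 took 80.0% of the summed level of the 6 proteases in DN:WT and 79.0% in KO:WT livers. Metalloproteinases outside these 6 are not in that sum, among them Mmp11 and Mmp15, whose mean levels in DN:WT livers were 40.6 and 40.3 CPM.

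In DN:HOM livers that order was changed. Mmp14 (21.2 ± 3.45 CPM per kilobase, SD, n = 7) came first, with a range that overlapped that of Mmp19 (15.7 ± 1.40). Timp2 reached 11.4 ± 1.46, and Mmp2, Timp1, Mmp12 and Timp3 lay together between 5.89 and 6.54 on average, with overlapping ranges. Mmp19 now took 30.7% of the summed protease level and Mmp14 41.6%. The summed level of all 6 proteases was 51.1 ± 4.85 CPM per kilobase in DN:HOM and 33.4 ± 2.09 in DN:WT livers (SD, n = 7), or 48.6 ± 8.24 and 36 ± 7.73 over all 48 livers. The summed level of the 3 inhibitors was 23.7 ± 3.15 CPM per kilobase in DN:HOM and 4.01 ± 0.514 in DN:WT livers, and that of the 5 proteases other than Mmp19 was 35.4 ± 5.22 and 6.66 ± 1.45. With all 48 livers the latter sums were 21.2 ± 7.61 and 6.43 ± 6.84 for the inhibitors and 31.7 ± 11.4 and 10.6 ± 11.2 for the 5 proteases (SD, n = 8). In KO:HOM livers Mmp19 kept the first place (21.2 ± 2.51 CPM per kilobase, SD, n = 8) with 66.8% of the protease sum.

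**Figure D1:**
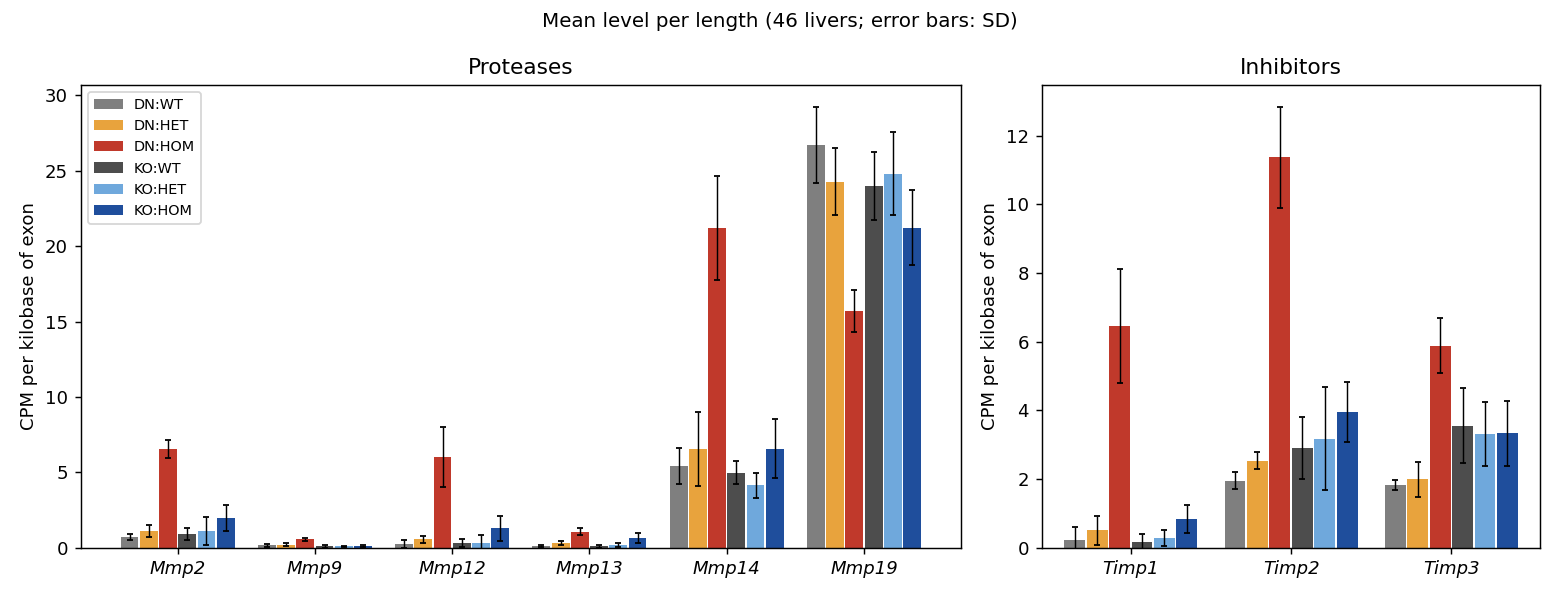
Mean CPM per kilobase of exon of each protease (left) and inhibitor (right) in the 6 groups of 46 livers, with SD as error bars. Mmp19 leads in every group except DN:HOM, where Mmp14 reaches 21.2 and Mmp19 15.7, and Timp2 is the highest inhibitor in DN:HOM at 11.4.

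The first comparison asks how the livers of mice homozygous for the dominant negative allele differ from those of their wild-type littermates. Of the 9 members, 8 were higher in DN:HOM and 1, Mmp19, was lower, and for none of them did the 7 DN:HOM livers overlap the 7 DN:WT livers. Over all 48 livers the groups overlapped for each of the 9. The comparison moved much of the transcriptome. Of all 15711 genes tested, 29.1% were higher and 30% lower at an adjusted p under 0.05, and 33.5% did not overlap between the groups. The median log2 fold change was 2.56 over the members and -0.01 over all genes tested. Over all 48 livers these medians were 1.41 and -0.02.

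Mmp12, the macrophage elastase, had 26.3, 45.4 and 67.4 CPM as lowest, median and highest of the DN:HOM livers and 0.477, 1.26 and 5.94 CPM in DN:WT livers. The lowest DN:HOM liver was above the highest DN:WT liver, animal 17, which stood apart from the other wild-type livers. On the log2 scale the fold change was 4.57 (standard error, SE, 0.62, adjusted p = 2.8e-08), and over all 48 livers it was 2.23 (SE 0.71, adjusted p = 0.009).

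Mmp13, the main interstitial collagenase of mice, lies upstream of Mmp12 in the metalloproteinase cluster of chromosome 9. Its levels were 1.82, 2.85 and 3.84 CPM in DN:HOM and 0.0696, 0.354 and 0.592 CPM in DN:WT livers. The DN:WT values rest on 1 to 8 reads per liver and the DN:HOM values on 37 to 80. It rose by 3.04 on the log2 scale (SE 0.45, adjusted p = 1.9e-07), and 1.36 over all 48 livers (SE 0.53, adjusted p = 0.032).

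Mmp2 and Mmp9 are the gelatinases, which cut denatured collagen. Mmp2 had 20, 23 and 25.9 CPM in DN:HOM and 1.43, 2.25 and 3.82 CPM in DN:WT livers, so the DN:HOM livers lay close together. The change was 3.22 (SE 0.33, adjusted p = 2.8e-11), and 2.03 over all 48 livers (SE 0.44, adjusted p = 0.00033). Mmp9 was at 1.25, 2.21 and 2.57 CPM in DN:HOM and 0.209, 0.518 and 1.16 CPM in DN:WT livers, where DN:WT animal 28 at 1.16 CPM came close to the lowest homozygous liver at 1.25 CPM. Mmp9 rose by 1.93 (SE 0.39, adjusted p = 4.7e-05), and 1.41 over all 48 livers (SE 0.42, adjusted p = 0.0053).

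Mmp14 had 95.9, 129 and 160 CPM in DN:HOM and 25.9, 30.8 and 47.4 CPM in DN:WT livers. It rose by 1.98 (SE 0.18, adjusted p = 2.4e-12), and 1.34 over all 48 livers (SE 0.27, adjusted p = 0.00014). Mmp19 went the other way, from 82.9, 97.3 and 107 CPM in DN:WT to 50.4, 54.4 and 65.9 CPM in DN:HOM livers. It fell by 0.75 on the log2 scale (SE 0.08, adjusted p = 4.5e-11) and by 0.59 over all 48 livers (SE 0.10, adjusted p = 3.3e-05). Scaling by library size alone moved the median of all genes by 0.42 in this comparison, and Mmp19 then still fell, by 0.32. Summed hepatocyte markers were also lower, at 29890 to 38216 CPM in DN:HOM against 58969 to 75233 CPM in DN:WT livers (29890 to 78151 and 40063 to 75233 CPM over all 48), and their part in the fall of Mmp19 was not tested. Mmp19 shares 1084 exonic bases with Tmem198b on the opposite strand, and counts without regard to strand left its call as it was.

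**Figure D2:**
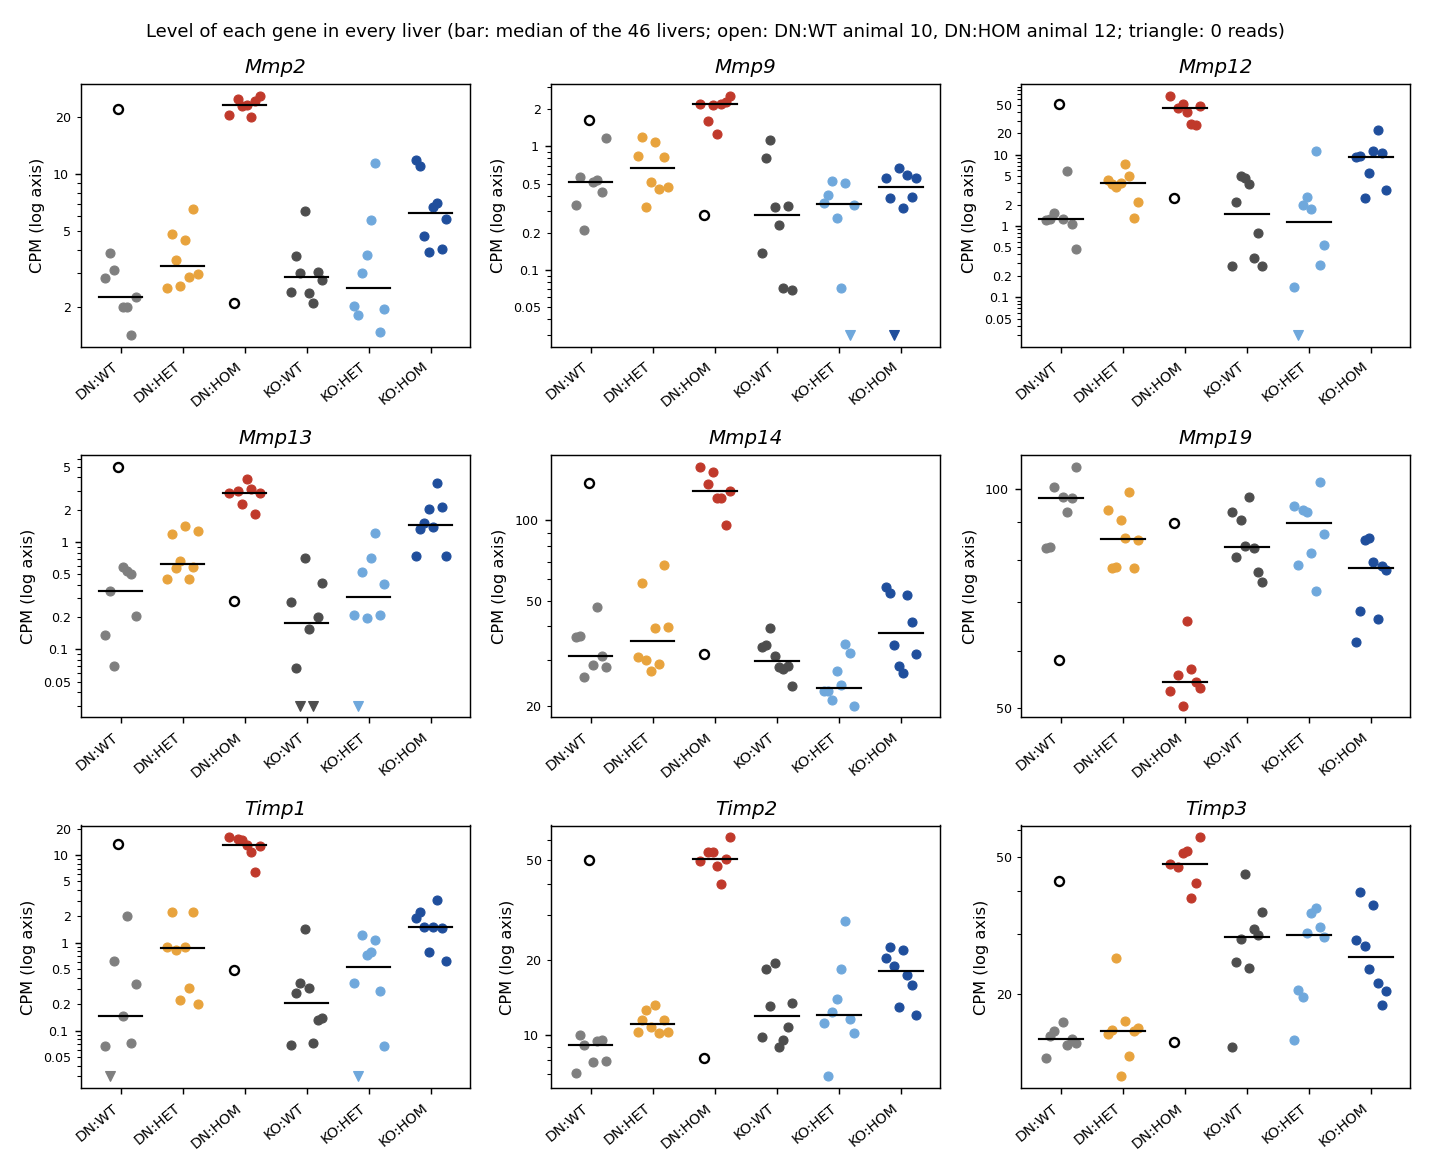
CPM of each gene in every one of 48 livers, on a log axis, with the median of the 46 livers as a bar. Open circles are DN:WT animal 10 and DN:HOM animal 12, and livers with 0 reads are triangles at the foot of the panel. The filled DN:HOM points lie above all filled DN:WT points in each panel but that of Mmp19, where they lie below.

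The inhibitors all rose. Timp1, the inducible inhibitor that is a usual marker of liver fibrosis, had 6.41, 12.9 and 15.9 CPM in DN:HOM livers. In DN:WT livers it had 0, 0.148 and 2 CPM, and DN:WT animal 5 held 0 reads, which allows up to 0.212 CPM at its depth. The change of 4.73 was the highest of the members (SE 0.57, adjusted p = 1.7e-09), and 2.35 over all 48 livers (SE 0.68, adjusted p = 0.0043).

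Timp2, which blocks MMP2 and at low amounts takes part in its activation by MMP14, had 40.2, 50.1 and 61.3 CPM in DN:HOM and 7.08, 9.12 and 9.97 CPM in DN:WT livers. Both groups were narrow, and the rise by 2.56 (SE 0.19, adjusted p = 4.4e-15) had the smallest p of the 9 members over 46 livers (over 48 that was Mmp19). Over all 48 livers it was 1.70 (SE 0.31, adjusted p = 6.4e-05). Timp3, which is bound to the matrix and also blocks ADAM17, had 38, 48 and 57.1 CPM in DN:HOM and 13.1, 14.9 and 16.7 CPM in DN:WT livers. Timp3 rose by 1.70 (SE 0.19, adjusted p = 1.4e-10), and 1.25 over all 48 livers (SE 0.23, adjusted p = 7e-05). Over all 48 livers, 48% of 15621 genes passed in this comparison, and all 9 members did.

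The knockout comparison asks whether loss of the receptor gives the same picture. Of the 9 members, 4 were higher in KO:HOM than in KO:WT livers (Mmp2, Mmp12, Mmp13 and Timp1) and 0 were lower, against 11.5% of all genes tested that were higher and 7.87% that were lower. The median log2 fold change was 0.44 over the members and -0.02 over all genes. Only Mmp13 had groups that did not overlap, which was so for 2.55% of all genes.

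Mmp13 had 0.735, 1.45 and 3.57 CPM as lowest, median and highest of the KO:HOM livers and 0, 0.176 and 0.717 CPM in KO:WT livers. The KO:HOM values rest on 8 to 61 reads per liver and the KO:WT values on 0 to 11. The lowest KO:HOM liver, animal 8, held 12 reads and the highest KO:WT liver, animal 23, held 11. The lack of overlap is thus within counting error. KO:WT animals 14 and 32 held 0 reads, which allows up to 0.209 and 0.216 CPM. It rose by 2.82 on the log2 scale (SE 0.46, adjusted p = 2.2e-05).

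Mmp12 ranged over 2.47, 9.42 and 22 CPM in KO:HOM and 0.275, 1.47 and 5.02 CPM in KO:WT livers, with overlap between the groups. It rose by 2.11 (SE 0.55, adjusted p = 0.0049). Timp1 had 0.617, 1.52 and 3.10 CPM in KO:HOM livers and 0.0688, 0.204 and 1.43 CPM in KO:WT livers, where animal 23 had the 1.43 CPM and the others 0.349 CPM or less. Its rise was 2.21 (SE 0.58, adjusted p = 0.0046).

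Mmp2 had 3.91, 6.24 and 11.9 CPM in KO:HOM and 2.08, 2.89 and 6.38 CPM in KO:WT livers. It rose by 1.10 on the log2 scale (SE 0.30, adjusted p = 0.0061), and again KO:WT animal 23 was the wild-type liver within the homozygous range. The other 5 did not pass. Their log2 fold changes were 0.40 for Mmp14 (adjusted p = 0.095), 0.44 for Timp2 (adjusted p = 0.063), -0.18 for Mmp19 (adjusted p = 0.069), 0.23 for Mmp9 (adjusted p = 0.76) and -0.10 for Timp3 (adjusted p = 0.72). The 95% intervals of these reached from 0.05 to 0.74 for Mmp14, from 0.10 to 0.79 for Timp2 and from -0.33 to -0.04 for Mmp19. They reached from -0.64 to 1.10 for Mmp9 and from -0.44 to 0.24 for Timp3. By edgeR, Mmp14, Timp2 and Mmp19 had an unadjusted p under 0.05.

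The fit shares its estimate of spread among all groups, so the knock-in livers bear on the knockout p-values. When KO livers were fitted alone, 16.9% of 14296 genes passed and the same 4 members did, with adjusted p of 0.033 for Mmp2, 0.034 for Mmp12, 0.00046 for Mmp13 and 0.0042 for Timp1. When all 48 livers were fitted, 12.9% of genes passed and Mmp13 alone of the members did (adjusted p = 0.0021). The fold changes hardly moved, but the standard errors grew, for Mmp2 from 0.30 to 0.45, and the adjusted p became 0.097 for Mmp2, 0.060 for Mmp12 and 0.068 for Timp1.

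**Figure D3:**
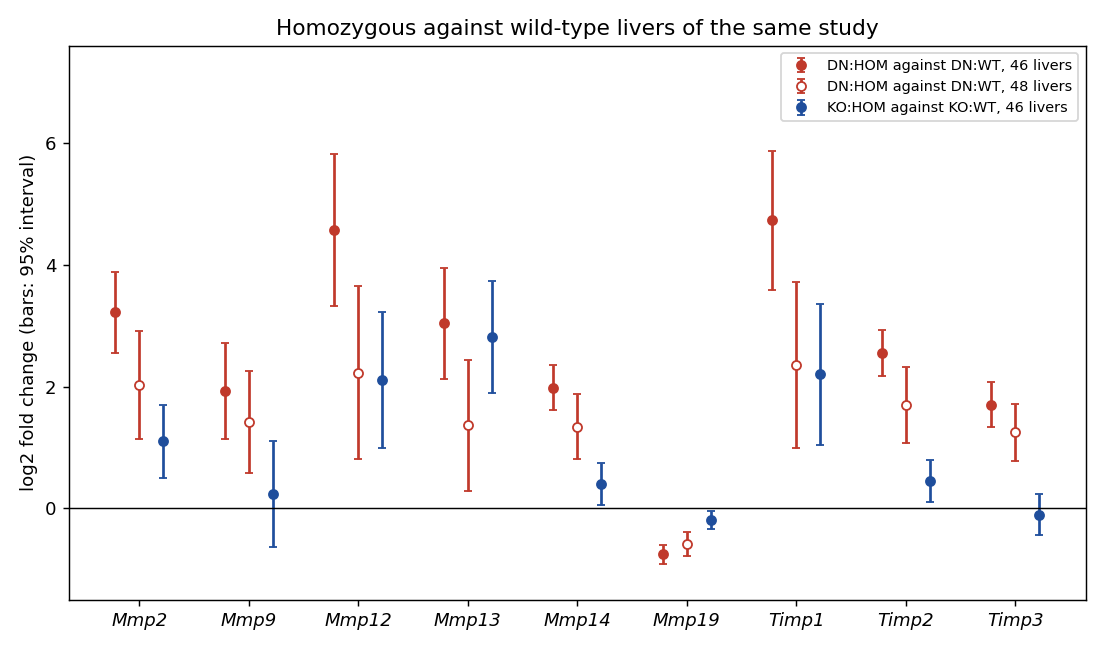
Log2 fold change of each gene between homozygous and wild-type livers of the same study, with 95% intervals, for the knock-in over 46 livers (filled red), the knock-in over 48 livers (open red) and the knockout (blue). Mmp13 is the gene at which the 46-liver knock-in value (3.04) and the knockout value (2.82) lie closest together.

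The difference between the homozygous effects was tested directly. It passed for 8 of 9 members over 46 livers, as it did for 34.7% of all genes. The homozygous effect was higher in the knock-in for Mmp2 by 2.12 on the log2 scale (SE 0.43, adjusted p = 0.00015), for Timp2 by 2.11 (SE 0.25, adjusted p = 1.1e-08), for Timp3 by 1.81 (SE 0.25, adjusted p = 2.4e-07) and for Mmp14 by 1.58 (SE 0.25, adjusted p = 2.5e-06). It was higher by 2.46 for Mmp12 (adjusted p = 0.015), by 2.53 for Timp1 (adjusted p = 0.017) and by 1.69 for Mmp9 (adjusted p = 0.022). Mmp19 differed by -0.57 (adjusted p = 4.5e-05).

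Mmp13 was the exception. Its effects differed by 0.22 (SE 0.72, adjusted p = 0.84) with a 95% interval from -1.22 to 1.66, so differences of more than 2-fold either way fit within it. With all 48 livers only 10.5% of genes passed and, of the members, only Timp3 (1.35, SE 0.33, adjusted p = 0.0094). The difference for Mmp12 was then 0.13 (adjusted p = 0.96) and for Timp1 0.14 (adjusted p = 0.96). It was -0.41 for Mmp19 (adjusted p = 0.051), 1.25 for Timp2 (adjusted p = 0.057) and 0.94 for Mmp14 (adjusted p = 0.093). For Mmp9 it was 1.18 (adjusted p = 0.23) and for Mmp2 0.93 (adjusted p = 0.34). These calls of a difference between the studies therefore rest, Timp3 apart, on leaving out the pair of livers that went against their labels.

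In heterozygous livers no member passed. In DN:HET against DN:WT, 2.30% of all genes passed and 0 of 9 members did by edgeR, with 2 (Mmp13 and Timp2) at an unadjusted p under 0.05. DESeq2 also called 0, with 3 (Mmp2, Mmp13 and Timp2) at an unadjusted p under 0.05. With DN livers fitted alone by edgeR, 4 (these and Mmp12) were under that p. Timp2 had 10.2, 11.1 and 13.1 CPM in DN:HET livers and did not overlap the 7 DN:WT livers at 7.08 to 9.97 CPM, a pattern held by 0.191% of all genes. Its log2 fold change was 0.37 (SE 0.18, adjusted p = 0.37). When DN livers were fitted alone, in which 1.58% of genes passed, it was 0.39 (SE 0.09, adjusted p = 0.041). Over all 48 livers the groups overlapped and the value was -0.31 (adjusted p = 1).

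Other members varied more among DN:HET livers. Timp1 lay between 0.199 and 2.25 CPM, with animals 4 and 22 highest, and the same 2 livers had the highest Mmp14 (58.4 and 68.1 CPM, against 39.7 CPM or less in the others) and Mmp2 (4.82 and 6.56 CPM). In KO:HET against KO:WT, 0.0191% of all genes passed and 0 of 9 members did, with 0 at an unadjusted p under 0.05 by edgeR and 1 (Mmp13) by DESeq2. KO:HET animal 9 had the highest level of its group for 6 members, with 11.4 CPM of Mmp2 and 11.2 CPM of Mmp12, while the other KO:HET livers reached 5.76 and 2.56 CPM.

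**Figure D4:**
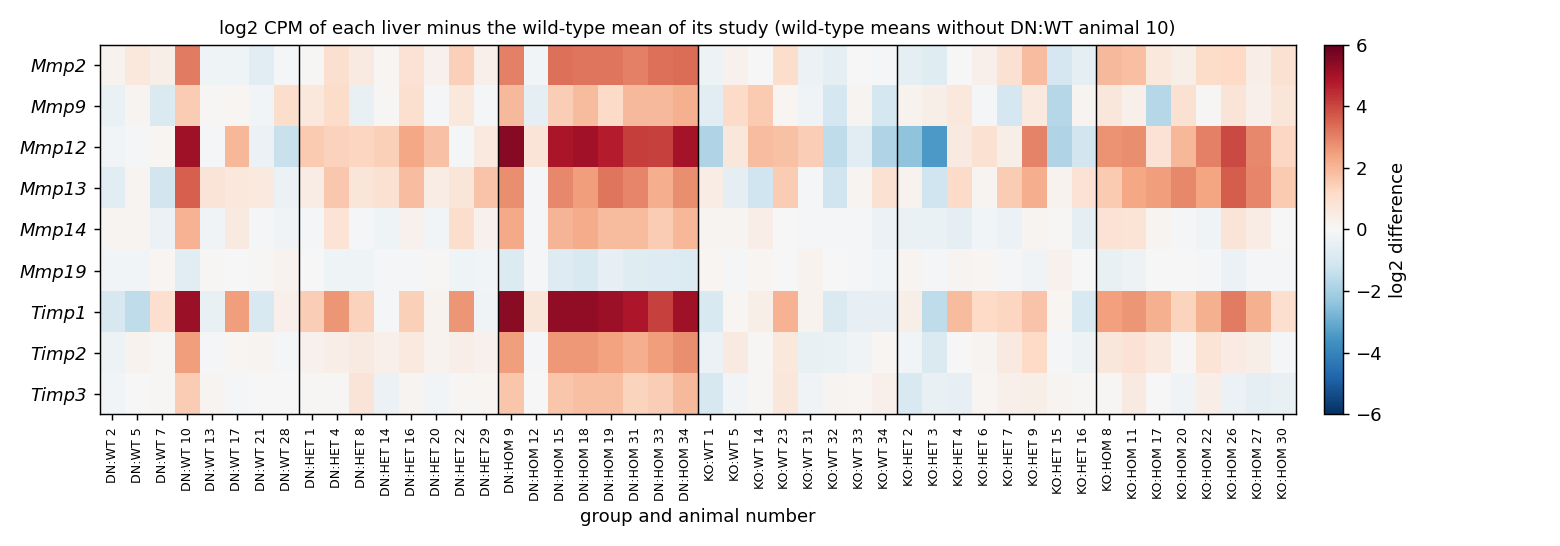
Log2 CPM of each gene in each of 48 livers minus the wild-type mean of its study, from blue (lower) to red (higher), with livers ordered by group and animal number. DN:WT animal 10 has the colours of DN:HOM livers and DN:HOM animal 12 those of DN:WT livers, and KO:HET animal 9 is red at Mmp2, Mmp12, Mmp13 and Timp2.

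The wider family was read from a list of 18 other genes, made up of metalloproteinases and Timp4. Of these, 9 had enough reads to be tested. In DN:HOM livers 6 of the 9 were higher and 1 lower, with a median log2 fold change of 1.27. Matrilysin Mmp7, best known from epithelia, went from 0.0906 to 6.82 CPM on average (log2 fold change 6.14, adjusted p = 1.6e-08), and neutrophil collagenase Mmp8 from 0.0601 to 1.55 CPM (4.54, adjusted p = 3.2e-07). The membrane-bound Mmp15 rose from 40.3 to 96.3 CPM (1.27, adjusted p = 5.6e-11). Mmp11 was the member that fell, from 40.6 to 23.2 CPM (-0.80, adjusted p = 5e-06). In KO:HOM livers 3 of 9 were higher (Mmp7, Mmp23 and Mmp25) and 0 lower, against 11.5% and 7.87% of all genes. In the fit of 48 livers the counts were 6 and 1 in the knock-in and 2 and 0 in the knockout. Of all 15621 genes in that fit, 3596 were higher and 3906 lower in the knock-in, and 1373 and 643 in the knockout. These numbers also stand beside the 48-liver counts of the lists that follow. The knock-in values were then 3.12 for Mmp7, 1.91 for Mmp8, 0.99 for Mmp15 and -0.62 for Mmp11, all still past the threshold, and Mmp23 no longer passed in the knockout (adjusted p = 0.062). Of the untested members, Mmp1a, Mmp1b and Mmp20 had 0 reads in all livers and Timp4 had 63.

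Activators and regulators of metalloproteinases were taken as a second list, with 20 of 21 genes tested. In DN:HOM livers 14 were higher and 4 lower, with a median of 1.94, and in KO:HOM livers 9 were higher and 2 lower, with a median of 0.52. Of the plasminogen activator system, which cleaves proenzymes, Plau (urokinase) rose by 2.81 in the knock-in and 1.55 in the knockout, its receptor Plaur by 3.56 and 1.92, and Plat (tissue-type activator) by 3.65 and 1.10 on the log2 scale. Plg, the plasminogen made by hepatocytes, fell by 0.43 in the knock-in. Reck, a membrane-bound inhibitor of metalloproteinases, was lower in both, with -1.13 (adjusted p = 6.8e-07) and -0.47 (adjusted p = 0.046). Of the AP-1 genes, Fos was higher by 3.33 (adjusted p = 4.4e-11), Fosl1 by 3.39 (adjusted p = 5.7e-05), Junb by 1.56 (adjusted p = 1.3e-07), Fosl2 by 1.05 (adjusted p = 1.1e-07) and Jun by 0.98 (adjusted p = 0.016) in DN:HOM livers. In KO:HOM livers Fosl2 alone of these 5 passed (0.40, adjusted p = 0.041). Lcn2, whose product binds MMP9, was the list's gene that passed in DN:HET livers (2.22, adjusted p = 0.044), with -0.30 (adjusted p = 1) over all 48 livers. The knock-in values over all 48 livers were 1.70 for Plau, 2.17 for Plaur, 2.09 for Plat, -0.33 for Plg, -0.81 for Reck, 1.81 for Fos, 2.08 for Fosl1, 1.13 for Junb and 0.72 for Fosl2, and each of these passed. With all 48 livers 12 genes of the list were higher and 4 lower in DN:HOM, where Jun had 0.61 (adjusted p = 0.15), and 4 were higher and 0 lower in KO:HOM livers, where Reck had -0.46 (adjusted p = 0.14), Plat 1.10 (adjusted p = 0.19) and Fosl2 0.41 (adjusted p = 0.14).

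The related ADAM and ADAMTS proteases were tested as 15 genes, of which 13 were higher and 1 lower in DN:HOM livers (median 1.77) and 6 higher in KO:HOM livers (median 0.47). Adam8 rose by 3.73 in the knock-in and 2.66 in the knockout, and Adam17, the sheddase that TIMP3 blocks, by 0.76 and 0.47. Adamts2, which trims procollagen, rose by 1.99 and 0.63. Among 8 tested genes of other matrix turnover, 8 were higher in DN:HOM (median 3.23, or 1.85 over all 48 livers) and 4 in KO:HOM livers (median 0.59). The collagen-degrading cathepsin Ctsk rose by 3.41 in the knock-in and had 0.60 (adjusted p = 0.11) in the knockout. The collagen receptor Mrc2 rose by 3.4 and 1.21, and the cross-linking enzyme Lox by 3.28, with 0.58 (adjusted p = 0.43) in the knockout. With all 48 livers, 12 of the ADAM and ADAMTS genes were higher in DN:HOM and 5 in KO:HOM livers, and of the matrix turnover genes 8 and 1. The knock-in values were then 1.87 for Adam8, 0.51 for Adam17, 1.29 for Adamts2, 2 for Ctsk, 2.17 for Mrc2 and 1.78 for Lox. In the knockout Adamts2 (0.64, adjusted p = 0.20) and Mrc2 (1.21, adjusted p = 0.061) no longer passed.

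Markers of several liver cell types differed between the same groups. In bulk liver, more cells of a type and more RNA per cell cannot be told apart. The summed level of 12 stellate cell and fibroblast markers was 946 to 1317 CPM in DN:HOM against 272 to 350 CPM in DN:WT livers, with 11 of 12 higher, and 359 to 639 against 246 to 520 CPM in KO:HOM and KO:WT livers, with 8 of 12 higher. Lrat, which marks quiescent stellate cells, had 0.20 (adjusted p = 0.39) in the knock-in, while Col1a1 rose by 3.5 (2.01 over all 48 livers). The 10 macrophage markers summed to 1051 to 1664 CPM in DN:HOM and 85.8 to 166 CPM in DN:WT livers (10 of 10 higher), and to 256 to 1052 and 63.1 to 178 CPM in KO:HOM and KO:WT livers (8 of 10 higher). Markers of resident Kupffer cells fell, 6 of 6 in the knock-in, where their sum was 1.71 to 3.5 CPM in DN:HOM against 140 to 268 CPM in DN:WT livers, and 4 of 6 in the knockout. With all 48 livers, 10 stellate and 9 macrophage markers were higher in the knock-in and 2 and 7 in the knockout, where 3 of 6 Kupffer cell markers were then lower. Hepatocyte markers were lower in 6 of 7 in the knock-in, also over 48 livers, and in 5 of 7 in the knockout (2 with all 48). In DN:HET livers 5 of 10 macrophage markers were higher over 46 livers, where 2.30% of all genes passed. Over 48 livers 0 were, where 39 of 15621 genes passed.

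Neutrophil markers summed to 33 to 90.9 CPM in DN:HOM and 4.36 to 8.13 CPM in DN:WT livers, and to 4.98 to 30.4 and 2.22 to 6.93 CPM in KO:HOM and KO:WT livers. Of the 8 tested, 7 were higher and 1 lower in DN:HOM (5 and 1 over all 48 livers) and 4 were higher in KO:HOM livers (2 with all 48). The lower one was Elane, which fell by 2.41 (adjusted p = 1e-05), or by 1.66 over all 48 livers. The defining gene Ly6g had 0 reads in 40 of 48 livers and at most 4. Of the 5 tested cholangiocyte markers all were higher in DN:HOM livers, among them Krt19 by 3.58 (2.27 over all 48 livers, with 5 of 5 still higher). In KO:HOM livers 1 was higher, Spp1, which macrophages also make (1.42, adjusted p = 0.0047), and 0 with all 48 livers (adjusted p = 0.14). Endothelial markers were 1 of 6 higher and 4 lower in DN:HOM livers, and 1 higher and 1 lower in KO:HOM livers. The higher endothelial marker in DN:HOM was Lyve1 (0.71, adjusted p = 0.024), which did not pass with all 48 livers (0.52, adjusted p = 0.10). The 2 livers that went against their labels did so here too, with macrophage sums of 1660 CPM in DN:WT animal 10 and 95.7 CPM in DN:HOM animal 12, Kupffer cell sums of 3.24 and 160 CPM, and neutrophil sums of 65.1 and 4.34 CPM. The part of these cell types in the levels of the proteases and inhibitors was not tested.

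Within groups, the members had different companions. For each member the genes whose log2 CPM went most closely with it were taken from 11704 genes over 46 livers, after the mean of each group was removed. The livers share their scaling between genes, and the values are descriptions. Mmp2 went with Col1a2 (Pearson's r 0.87), Col1a1 (0.85) and Adamts2 (0.85), and Timp2 with the collagen VI genes Col6a2 (0.87) and Col6a1 (0.86) and with Col5a2 (0.85). Timp1 went with Wdr1 (0.81), Coro1c (0.78) and Col3a1 (0.77), and Mmp12 with the macrophage gene Trem2 (0.77), Gpx3 (0.76) and Scd2 (0.73). Mmp14 went with Arpc1b (0.81), Hvcn1 (0.80) and Fes (0.79), which are known from blood cells. Timp3 went with Unc5b (0.74), Angptl2 (0.74) and Ccbe1 (0.73), and Mmp13 with Ifi27l2b (0.66), Golm1 (0.63) and the stellate cell gene Pdgfrb (0.61). The values of Mmp19 (Wwc1 0.66) and Mmp9 (Cytip 0.61) were the lowest at first place with that of Mmp13. Among the members themselves Mmp2 and Timp2 were closest (0.75), Mmp12 went with Timp2 (0.63) and Timp1 (0.61), and Mmp19 ran against Mmp2 (-0.61).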

How the data were processed

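Liver RNA of 48 mice was sequenced from stranded mRNA libraries. The authors aligned reads with STAR 2.5.0a to GRCm39, per the submitters' processing notes, and deposited raw counts of reads per gene, without normalization, as 1 unstranded column and a column for either strand. The column of the strand with the larger total was used (6.97 to 8.62 times the other). The 4 summary lines that name no gene (24.0% to 35.0% of reads) were left out. A liver at 0 reads allows up to 3 counts, and such limits cover counting error only.

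The test was edgeR 4.0.16 (R 4.3.3; filterByExpr, TMM scaling, quasi-likelihood F test on 6 group means, Benjamini-Hochberg adjustment over all genes tested, threshold 0.05). CPM are TMM-scaled. Levels per length divide CPM by the exon length in the GENCODE annotation. Log2 CPM used a prior count of 2. Each liver comes from a separate mouse, and no pair of livers held identical counts. The fit held 46 livers, identified by matching 22 DN livers to that source table of the study. The model was tested on simulated data. Alternatives were all 48 livers, DESeq2 1.42.0, upper-quartile scaling, library size alone, no low-count filter, unstranded counts, a minimum mean CPM of 1, separate fits of the studies, leaving out the 2 livers under 10000000 reads, and a log2 fold change of at least 1. Figures and tables used Python 3.11.15 with pandas 2.3.3, numpy 2.4.6 and matplotlib 3.10.9.

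The members and gene lists were chosen with earlier results of these data known. Named genes were the 9 members, Nr1h3, list members, overlapping genes and, for each member, the 3 genes with the highest within-group correlation among genes with a mean log2 CPM above 1. Promoters were read from GRCm39 before the start of each gene's reference (Ensembl canonical) transcript. Lists were counted without set tests, and of 8 hepatocyte markers 7 were found. The values of 1 listed gene are not reported here.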

Additional observations from a re-analysis of the deposited data

Results flagged for a closer look

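Livers far from the rest of their group were looked for in 54 pairs of gene and group over 48 livers and in 18 pairs of the DN:WT and DN:HOM groups without animals 10 and 12. Chance alone gives about 1 such case in 20 for pairs taken singly. The genes were measured in the same livers, so the pairs are not independent, and the counts cannot be set against that rate. There were 18 cases over 48 livers, 15 of them DN:WT animal 10 or DN:HOM animal 12. The 18 pairs without these 2 animals gave 1 further case. DN:WT animal 10 stood apart with 22 CPM of Mmp2, 5.06 CPM of Mmp13, 139 CPM of Mmp14, 58.2 CPM of Mmp19, 50 CPM of Timp2 and 42.6 CPM of Timp3. DN:HOM animal 12 stood apart with 2.10 CPM of Mmp2, 0.280 CPM of Mmp9, 2.45 CPM of Mmp12, 0.280 CPM of Mmp13, 31.4 CPM of Mmp14, 89.7 CPM of Mmp19, 0.490 CPM of Timp1, 8.11 CPM of Timp2 and 14.5 CPM of Timp3.

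The other cases were Mmp9 in KO:HOM animal 17 with 0 CPM, a liver with 5376226 reads whose 0 reads allow up to 0.570 CPM, above the group's median of 0.470 CPM, Timp1 in KO:WT animal 23 with 1.43 CPM, Timp3 in DN:HET animal 8 with 25.4 CPM, and Timp1 in DN:HOM animal 33 with 6.41 CPM, the lowest of 7.

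The homozygous effect differed between the knock-in and the knockout, by the test of the difference over 46 livers, for Mmp2 (2.12 on the log2 scale), Mmp9 (1.69), Mmp12 (2.46), Mmp14 (1.58), Mmp19 (-0.57), Timp1 (2.53), Timp2 (2.11) and Timp3 (1.81).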

How the results depend on the processing

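The count of members that passed in DN:HOM against DN:WT was 9 in the fit of 46 livers and within 1.5 times of it in each alternative run. All 48 livers as labelled gave 1 in KO:HOM against KO:WT (4 with 46 livers) and 1 for the difference between the studies (8 with 46 livers). The estimate of spread, which all groups share, was larger in that fit. The DN livers fitted alone gave 1 in DN:HET against DN:WT (0 in the fit of all groups). The effect difference of Mmp13 changed sign with all 48 livers (-1.46, adjusted p = 0.25), and the KO:HOM value of Timp3 with library size alone (0.02, adjusted p = 0.96); neither passed with 46 livers and TMM scaling. With library size alone Timp2 passed in KO:HOM livers (0.56, adjusted p = 0.022), as did Mmp14 (0.52), and without the 2 shallow livers Mmp19 did (-0.21, adjusted p = 0.042). As a ratio, levels per length moved most in DN:WT livers with all 48, for Timp1 from 0.238 to 1.07 and for Mmp12 from 0.252 to 1.10 CPM per kilobase. In the same livers Mmp13 moved from 0.128 to 0.348, Mmp2 from 0.706 to 1.39 and Timp2 from 1.95 to 3.11. In CPM per kilobase Mmp14 moved further, from 5.43 to 7.56 in DN:WT and from 21.2 to 19.2 in DN:HOM livers. A limit is the label of 2 livers, and at 0 to 30 reads per wild-type liver the levels of Mmp9, Mmp13 and Timp1 rest on few reads. Mmp9 was not tested with a mean CPM of at least 1, or in the KO livers alone. No paired analysis was possible because the labels give no replicate numbers shared between groups.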
